A study of Mus musculus with 12 samples.

Results

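The genes described here copy the genome and supply its building blocks. A list of 53 DNA replication and nucleotide supply genes was matched by symbol to the deposited table, and all 53 were found among its 11264 genes and passed the filter on low values that left 11255 genes for testing. By role the list held 4 genes of origin licensing, 7 MCM helicase genes, 7 of helicase activation, 9 of polymerases and primase, 6 of the sliding clamp and its loader, 3 of single-strand binding, 2 of Okazaki fragment joining, 5 of nucleotide supply, 6 of chromatin behind the fork and 4 of fork protection. RNA was read from tumor-infiltrating CD103+ type 1 conventional dendritic cells (cDC1s), sorted on day 13 from B16F10 melanomas, a transplantable line of C57BL/6 origin. The hosts were WT mice or DNGR-1-deficient mice (Clec9agfp/gfp, in which a gfp cassette sits in the Clec9a gene of every cell), aged 7 to 10 weeks. All of them had been injected hydrodynamically 1 day before the tumor cells, with a plasmid encoding secreted Flt3L (FL) or with an empty plasmid (control), so that every control also went through the injection. The 4 groups, WT control, WT FL, Clec9agfp/gfp control and Clec9agfp/gfp FL, had 3 libraries each, and each library pooled 2 to 3 mice with a tumor on both flanks, so that variation between single mice was not measured.

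A cell licenses its replication origins by loading the MCM ring onto DNA, and in S phase converts that ring into a moving helicase with Cdc45 and the GINS complex. Primase and the polymerases then copy both strands, held to the template by the Pcna clamp, while ribonucleotide reductase and thymidylate enzymes keep deoxynucleotides in supply and histone chaperones rebuild chromatin behind the fork. Most of these genes are switched on together by E2F factors as cells enter the cycle, and dendritic cells, which descend from dividing precursors that answer to Flt3L, can still divide in tissue. In RNA of a bulk sorted population, fewer cells in S phase and less of each RNA per cell cannot be told apart.

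The deposited values are counts per M of a library size scaled by the trimmed mean of M values (TMM), called CPM here. The libraries had effective sizes of 14.4 to 25.9 M counts, except Clec9agfp/gfp control 3 with 3.06 M, where 1 count is worth 0.326 CPM. The lowest count of a member in any library was 12. Clec9a, the gene disrupted in the mutants, was at 288 to 388 CPM in the 6 WT libraries and at 0.269 to 1.36 CPM in 5 mutant libraries, and at 10.9 CPM in Clec9agfp/gfp control 3. All 15 listed cDC1 markers were measured, and their sum did not separate any groups. Of other dendritic cells, 8 of 10 cDC2 markers and 6 of 9 plasmacytoid dendritic cell markers had rows. Of other cell types, 15 of 18 macrophage and monocyte markers, 8 of 11 melanoma markers and 2 of 11 T cell markers had rows, and no B cell or neutrophil marker did. On the first principal component of all genes (32.9% of the variance), WT control 1 and 3 stood apart at −50.0 and −54.9, against −5.37 for WT control 2, and Clec9agfp/gfp FL 3 lay at the other end at 46.3.

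The summed level of the 53 genes was lowest in Clec9agfp/gfp cDC1s from FL-treated mice. It was 4470.0, 4882 and 5141 CPM in Clec9agfp/gfp control 1, 2 and 3, and 3488, 3533 and 2761 CPM in Clec9agfp/gfp FL 1, 2 and 3. All 3 FL libraries thus lay below all 3 controls, and the mean was 32.5% lower with FL. In WT cDC1s the sum was 4034, 4801 and 3880.0 CPM in control 1, 2 and 3 and 3608, 3359 and 4643 CPM in FL 1, 2 and 3, so that the groups overlapped and the means differed by 8.69%. Gene by gene, the lowest of the 4 group means was in Clec9agfp/gfp FL for 42 of the 53 members, against 28.1% of all genes tested, and in Clec9agfp/gfp control for none of them. The exceptions were Pola2 and Pold3, lowest in WT FL, and Mcm2, Mcm10, Gins3, Pola1, Pold1, Pole, Rpa1, Uhrf1 and Dnmt1, lowest in WT control. One library weighed on this picture. Clec9agfp/gfp FL 3 was the lowest of the 12 libraries for 36 of the 53 members (13.1% of all genes were lowest there), and without it the mean of the sum was 27.3% lower with FL than in Clec9agfp/gfp control.

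**Figure D1:**
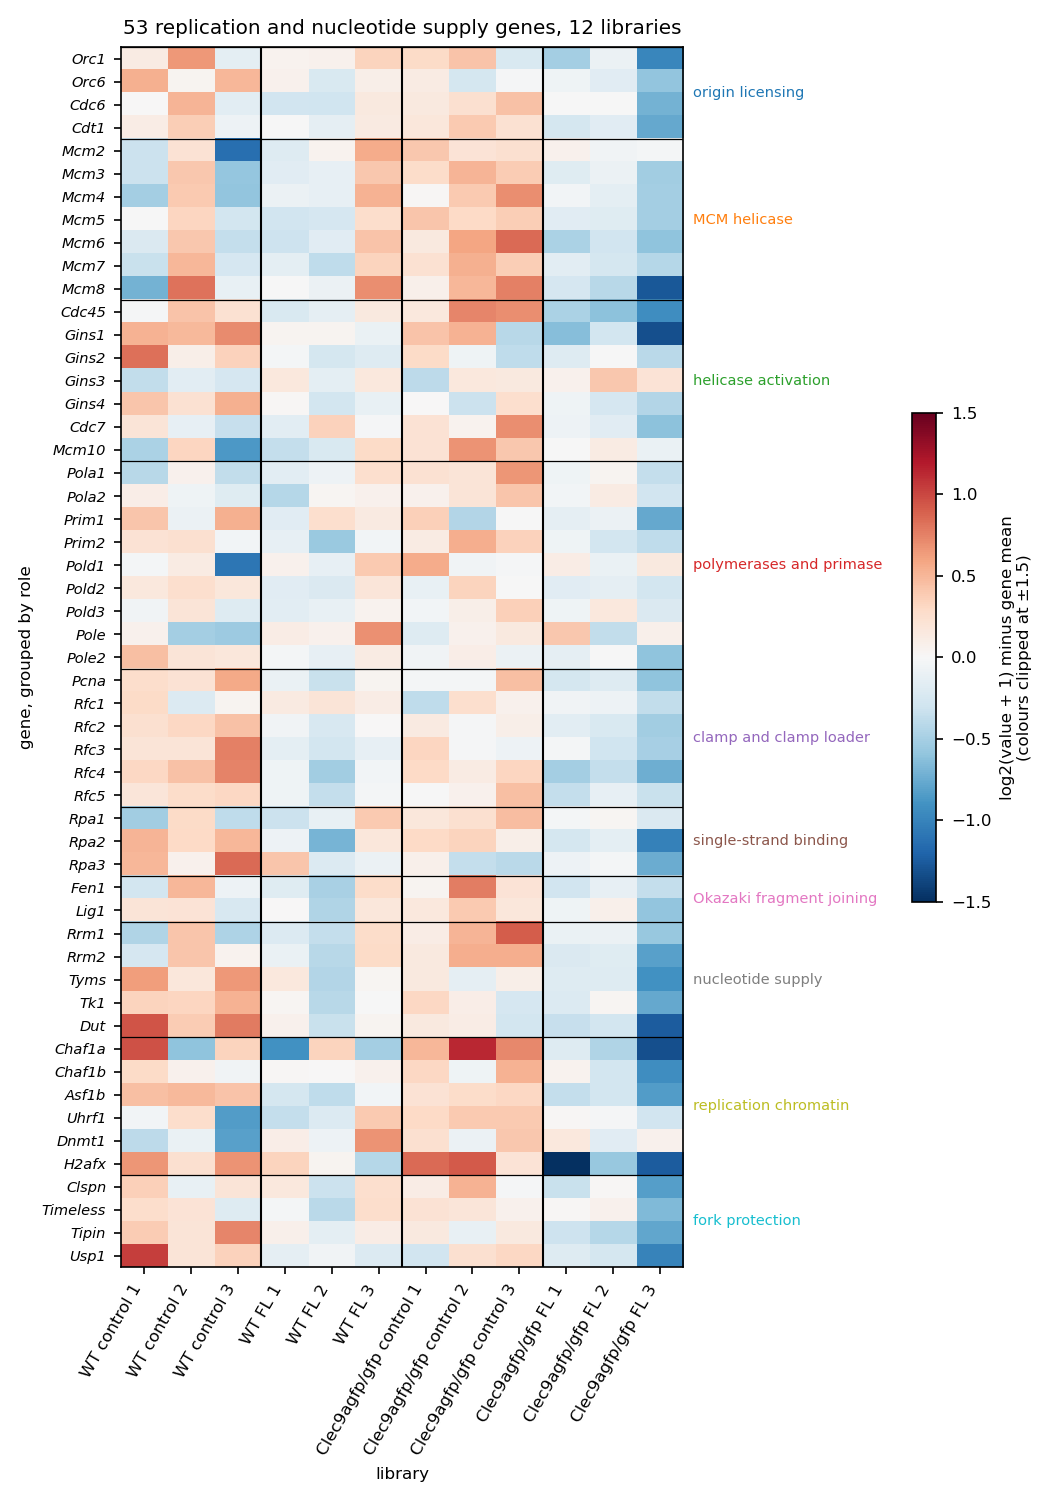
Heat map of the 53 members (rows, grouped by role) in the 12 libraries (columns), coloured by log2(value + 1) minus the mean of the gene over all libraries. Blue dominates the Clec9agfp/gfp FL columns, most of all Clec9agfp/gfp FL 3, the lowest library for 36 members, while most MCM genes are blue and most clamp genes red in WT control 1 and 3.

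FL was compared with the empty plasmid in Clec9agfp/gfp cDC1s first, by limma on log2(value + 1) over all genes, which asks whether Flt3L alters these genes when DNGR-1 is missing. Of the 53 members, 51 had a lower fitted mean with FL, and their median log2 fold change was −0.48, against 0.01 over all genes tested. At an adjusted p under 0.1, 7 members fell and none rose, while 3.45% of all genes tested fell. The 7 were H2afx, Cdc45, Asf1b, Mcm6, Rfc4, Chaf1a and Rrm2, that is 3 of 6 genes of chromatin behind the fork and 1 each of helicase activation, the MCM ring, the clamp loader and nucleotide supply. The FL libraries lay below all 3 controls for 32 members, against 13.6% of all genes, and above them for none. The FL libraries other than Clec9agfp/gfp FL 3 already lay below all 3 controls for 32 members (16.7% of all genes). The number of members called was 2 without Clec9agfp/gfp control 2, Clec9agfp/gfp FL 1 or Clec9agfp/gfp FL 3, 3 without Clec9agfp/gfp control 3 and 12 without WT control 2, where 1.06%, 0.826%, 0.755%, 1.31% and 4.54% of all genes fell, in that order. H2afx and Cdc45 were called under all 26 alternative settings. Macrophage and monocyte markers moved in the other direction in the same comparison, with 4 of 15 higher (C1qa, C1qb, Ly6c2 and Lyz2) and a summed level of 1288 to 1655 CPM in the controls and 1655 to 2068 CPM with FL. Of all 11255 genes, 226 rose there. In WT cDC1s none of the 15 passed, and their sum was 1629 to 2306 CPM in control and 1485 to 1789 CPM with FL. Of 11 fibroblast and endothelium markers 5 had rows, and none of the 5 passed the test in either genotype alone, with a median log2 fold change of 0.77 in Clec9agfp/gfp and 0.44 in WT cDC1s and a summed level of 22.9 to 56.0 CPM in Clec9agfp/gfp control and 47.1 to 89.9 CPM in Clec9agfp/gfp FL. Gzmb, the 1 measured of 7 NK cell markers, had a log2 fold change of 0.99 (adjusted p = 0.149), at a very low level (0.0346 to 3.61 CPM over the 12 libraries). Among other dendritic cell markers, 1 of 6 plasmacytoid markers was called higher and none of 8 cDC2 markers passed. Of 15 immediate-early genes, which respond to handling of the cells, 3 fell (Jun, Egr1 and Dusp1), and their sum was 5790.0 to 7383 CPM in the controls and 4677 to 7188 CPM with FL. The part of these markers in the result was not tested.

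**Figure D2:**
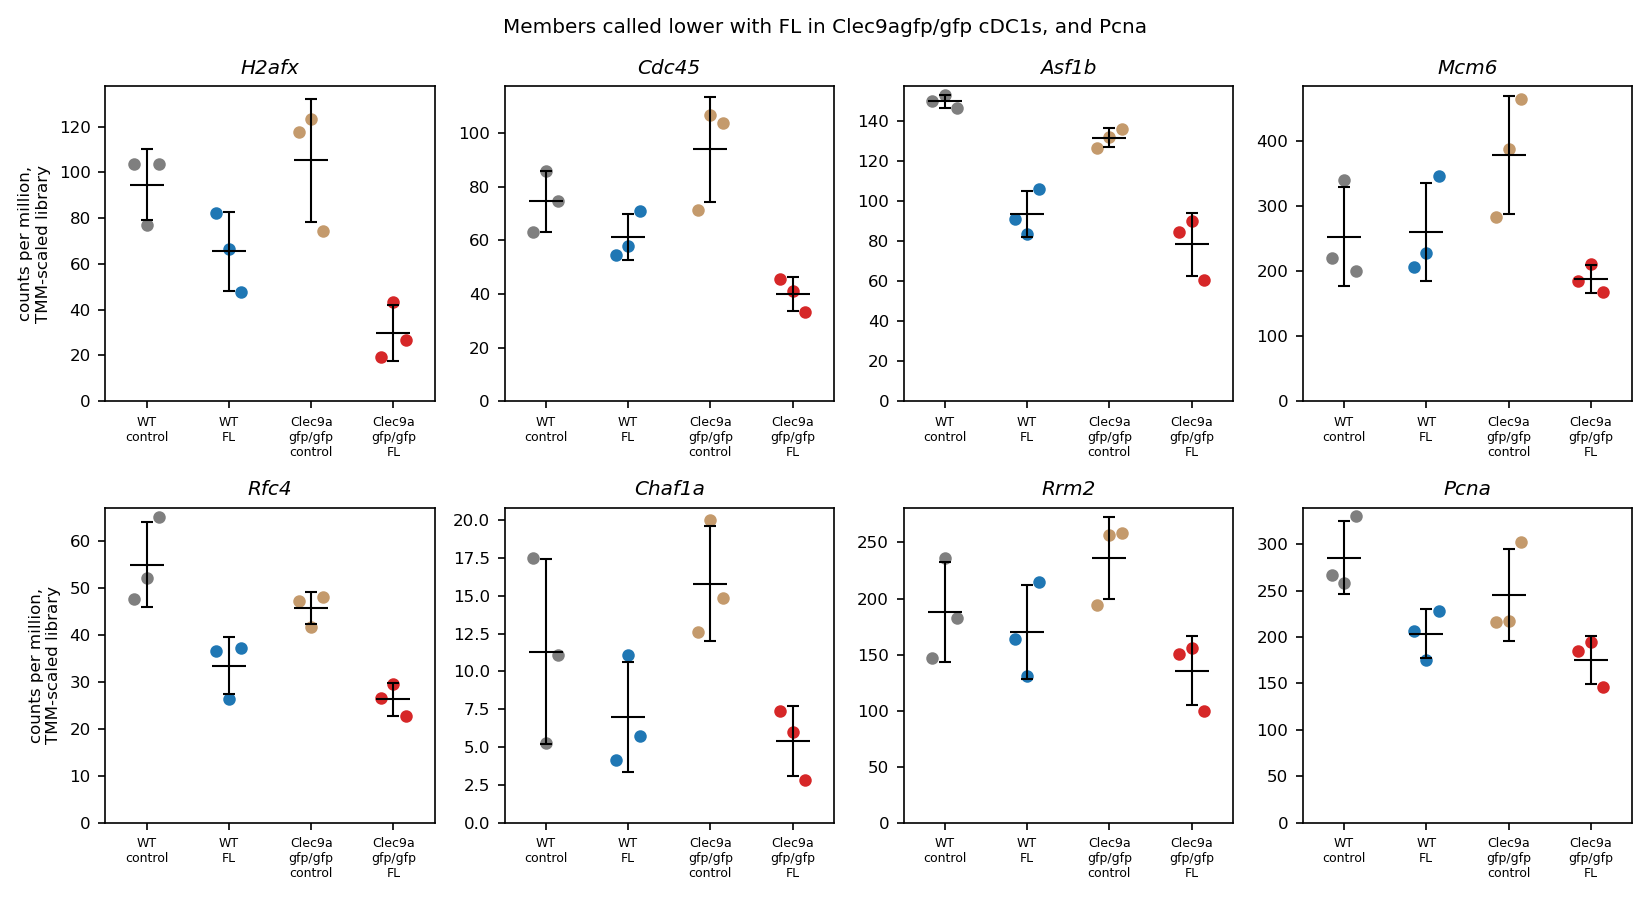
Values (CPM, vertical axes from 0) of the 7 members that fell with FL in Clec9agfp/gfp cDC1s and of Pcna, 1 point per library, with the group mean as a horizontal dash and the SD as a bar. For all 8 genes the 3 Clec9agfp/gfp FL points lie below the 3 Clec9agfp/gfp control points, and for Asf1b, Rfc4 and Pcna the WT FL points also lie below the WT control points.

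Origin licensing was represented by Orc1 and Orc6, subunits of the origin recognition complex, and by Cdc6 and Cdt1, which bring the MCM ring to it. None of the 4 passed the test in either genotype, and all 4 had their lowest group mean in Clec9agfp/gfp FL. Cdc6, the member with the highest value, read 41.3, 58.9 and 36.8 in WT control, 33.5, 33.3 and 45.7 in WT FL, 45.5, 48.9 and 56.3 in Clec9agfp/gfp control and 40.8, 40.952 and 24.7 in Clec9agfp/gfp FL. Cdt1, whose p was the smallest of the 4, read 31.03, 37.2 and 27.1 in WT control, 28.4, 25.969 and 31.5 in WT FL, 32.4, 37.9 and 33.8 in Clec9agfp/gfp control and 23.6, 25.3 and 16.3 in Clec9agfp/gfp FL. For both genes the Clec9agfp/gfp FL libraries were below their controls, with log2 fold changes of −0.52 ± 0.25 (SE, adjusted p = 0.317) and −0.67 ± 0.23 (SE, adjusted p = 0.132), while the WT groups overlapped. Orc1 had log2 fold changes of −0.68 in Clec9agfp/gfp and −0.06 in WT cDC1s, and Orc6 had −0.22 and −0.38.

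Mcm2 to Mcm7 form the ring of the replicative helicase, while Mcm8 belongs to a separate helicase that works in recombination. Per kilobase of the longest annotated transcript, the 6 ring subunits lay within a narrow range, 39.6 for Mcm4, 40.9 for Mcm2, 56.8 for Mcm7, 60.7 for Mcm5, 61.9 for Mcm6 and 68.9 CPM per kb for Mcm3, and Mcm8 was at 2.83 CPM per kb. Mcm6 (chr1:128331590-128359664, minus strand, in GRCm38 by the GENCODE annotation, as for all gene spans here) read 219.5, 339.9 and 199.6 in WT control, 206, 228 and 346 in WT FL, 283, 388 and 464 in Clec9agfp/gfp control and 184, 210.2 and 168 in Clec9agfp/gfp FL. It fell with FL in Clec9agfp/gfp cDC1s (log2 fold change of −0.99 ± 0.25 (SE), adjusted p = 0.0436), where its mean was 2.02 times lower, and in WT the groups overlapped (log2 fold change of 0.04 ± 0.25 (SE), adjusted p = 0.939). The call was lost without Clec9agfp/gfp control 2 or 3 and without Clec9agfp/gfp FL 1 or 3. All 7 MCM genes had the 3 Clec9agfp/gfp FL libraries below the 3 controls, with log2 fold changes from −1.09 for Mcm8 to −0.28 for Mcm2, but adjusted p was above 0.1 for the other 6. In WT cDC1s the FL and control libraries of all 7 overlapped, and 5 of the 7 had log2 fold changes above 0, up to 0.55 for Mcm2. The summed level of the 7 genes showed the spread behind this. It was 917 and 796 CPM in WT control 1 and 3 but 1443 CPM in WT control 2, against 1310 to 1594 CPM in Clec9agfp/gfp control and 799 to 970 CPM in Clec9agfp/gfp FL.

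The promoter of Mcm6 is shown because it is the only one, among the members that fell with FL in Clec9agfp/gfp cDC1s, in which an E2F site was found. The window runs from 250 bases before to 50 bases after the RefSeq start (GRCm38.p6, chr1:128359656-128359955, minus strand, 5′ to 3′), and capitals mark matches to TTTGGCGC, TTTCCCGC, TTTGCCGC or TTTCGCGC on either strand. They begin at −110, −106 and −47 from the start site, the first pair overlapping on opposite strands. For 3 other ring subunits 1 stretch each is shown, a single match in Mcm3 and Mcm7 and an overlapping pair in Mcm5, with 8 bases on either side where the window allows, Mcm3 at chr1:20820278-20820301 (minus strand), Mcm5 at chr8:75109348-75109375 (plus strand) and Mcm7 at chr5:138171852-138171875 (minus strand). They were picked after their values were seen, to let the ring subunits be compared. Mcm3 and Mcm7 each held 1 further match that is not shown, beginning at 39 and −165 from the start site. The window of Mcm2 held no match.
Mcm6: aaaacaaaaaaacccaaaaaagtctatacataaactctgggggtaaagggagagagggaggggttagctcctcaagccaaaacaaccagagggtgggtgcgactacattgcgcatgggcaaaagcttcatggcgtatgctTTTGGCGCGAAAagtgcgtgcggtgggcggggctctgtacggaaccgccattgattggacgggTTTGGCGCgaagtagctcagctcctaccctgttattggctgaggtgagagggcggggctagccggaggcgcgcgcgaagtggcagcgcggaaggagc
Mcm3: cttccgtgGCGGGAAAacttggga
Mcm5: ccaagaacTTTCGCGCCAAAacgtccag
Mcm7: tgacgacgTTTCGCGCcaatttcg

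Of the 53 members, 43 had a window in the RefSeq promoter table, and 18 of them (41.9%) held at least 1 such E2F site, against 4.94% of the 8437 genes of the deposited table that had a window and 2.61% of all 27025 genes with one. The 18 were Cdc6, Cdt1, Clspn, Dnmt1, Gins3, Lig1, Mcm3, Mcm5, Mcm6, Mcm7, Mcm8, Orc1, Pola1, Pold1, Pold3, Pole2, Rfc3 and Uhrf1. A CCAAT box (CCAAT on either strand) was present in 27 of the 43 (62.8%, against 43.6% of the table's genes), and a cell cycle homology region (TTTGAA or TTCGAA on either strand) in 10 (23.3%, against 17.2%). The 18 genes with an E2F site had a median log2 fold change of −0.50 in Clec9agfp/gfp cDC1s with 1 of them called, and the 25 without had −0.46 with 5 called. With FL in WT cDC1s the medians were −0.04 and −0.26, and between genotypes under the empty plasmid 0.29 and −0.06. In these 2 comparisons the members' differences also ran with transcript length (Pearson r of 0.59 and 0.62). Most of the 18 were at or above the members' median length of 3014 bases, and most of the 25 were below it. The sets were not matched for length, and its part in these medians was not tested. For FL averaged over both genotypes, 2 of the 18 and 11 of the 25 were called, while 7.85% of all genes fell. The difference between the sets was not tested. A match is a description of the letters and not evidence of binding. Gins1, Gins2, Gins4, H2afx, Mcm4, Pole, Prim2, Rfc2, Tipin and Usp1 had no window.

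Helicase activation turns the loaded ring into a moving fork. Cdc45 (chr16:18780447-18811987, minus strand), which joins the ring to make the active helicase, read 63.1, 85.9 and 74.6 in WT control, 54.4, 57.972 and 70.8 in WT FL, 71.2, 107 and 104 in Clec9agfp/gfp control and 45.7, 41.2 and 33.1 in Clec9agfp/gfp FL. It fell with FL in Clec9agfp/gfp cDC1s (log2 fold change of −1.20 ± 0.22 (SE), adjusted p = 0.0133), a mean 2.35 times lower, with no overlap between the groups. In WT cDC1s its groups overlapped (log2 fold change of −0.28 ± 0.22 (SE), adjusted p = 0.462), and under FL all 3 Clec9agfp/gfp libraries lay below all 3 WT libraries (log2 fold change of −0.60 ± 0.22 (SE), adjusted p = 1). Gins1, of the GINS complex that holds the helicase together, read 19.9, 19.4 and 22.8 in WT control, 13.9, 13.983 and 12.6 in WT FL, 18.6, 19.9 and 9.95 in Clec9agfp/gfp control and 8.35, 11.1 and 4.85 in Clec9agfp/gfp FL. Here the WT groups were apart and those of Clec9agfp/gfp overlapped because control 3 was low, with log2 fold changes of −0.58 and −0.92 that did not pass the test in either genotype alone. Gins2 and Gins4 had log2 fold changes of −0.58 and −0.51 in WT and −0.15 and −0.23 in Clec9agfp/gfp cDC1s, while Gins3 had 0.32 and 0.26, and no value passed the test. Cdc7, the kinase that fires origins, and Mcm10, which helps the ring open, had log2 fold changes of −0.61 and −0.42 in Clec9agfp/gfp and 0.15 and 0.24 in WT cDC1s, with the Clec9agfp/gfp groups apart for both.

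The polymerases and primase differed least with FL among the 10 roles in Clec9agfp/gfp cDC1s by the percent of their summed level, 16.5% lower, and none of the 9 genes passed the test in either genotype. Pold1, the catalytic subunit of the lagging-strand polymerase delta and the highest of the 9, read 71.8, 79.7 and 33.9 in WT control, 76.5, 67.3 and 96.5 in WT FL, 108, 70.5 and 72.3 in Clec9agfp/gfp control and 79.2, 68.3 and 81.3 in Clec9agfp/gfp FL, so that WT control 3 was low and all groups overlapped. Prim2, the large primase subunit, read 32.7, 33.3 and 27.2 in WT control, 25.7, 18.7 and 27.1 in WT FL, 30.7, 41.5 and 35.7 in Clec9agfp/gfp control and 26.8, 23.1 and 21.3 in Clec9agfp/gfp FL. Its FL libraries lay below the controls in both genotypes, with log2 fold changes of −0.58 in Clec9agfp/gfp and −0.38 in WT cDC1s. Its partner Prim1, which makes the primer, had −0.30 and −0.21 and overlapping groups. The polymerase alpha genes Pola1 and Pola2, which extend the primer, had log2 fold changes of −0.48 and −0.29 in Clec9agfp/gfp cDC1s. Pold2 and Pold3, accessory subunits of polymerase delta, had −0.27 and −0.18. Pole, the leading-strand polymerase, was 1 of only 2 members with a log2 fold change above 0 there (0.03, and 0.62 in WT), whereas its partner Pole2 had −0.23 and −0.28.

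The clamp and its loader were the role in which the 2 genotypes were closest in size. The sum of the 6 genes was 26.0% lower with FL in Clec9agfp/gfp and 25.2% lower in WT cDC1s. Pcna, the clamp that rings the DNA and the member with the highest level per length (149.7 CPM per kb), read 267, 258 and 330.2 in WT control, 207, 176 and 228 in WT FL, 217, 217 and 302 in Clec9agfp/gfp control and 185, 194 and 146 in Clec9agfp/gfp FL. FL libraries lay below the controls in both genotypes (−0.48 ± 0.20 and −0.49 ± 0.20, log2 fold change ± SE), without a call in either alone (adjusted p = 0.231 and 0.172). Rfc4 (chr16:23113943-23127737, minus strand), a loader subunit, read 47.7, 52.2 and 65.029 in WT control, 36.7, 26.4 and 37.3 in WT FL, 47.3, 41.7 and 48.1 in Clec9agfp/gfp control and 26.5, 29.6 and 22.7 in Clec9agfp/gfp FL. Rfc4 fell in Clec9agfp/gfp (log2 fold change of −0.78 ± 0.22 (SE), adjusted p = 0.0642) and in WT cDC1s (log2 fold change of −0.71 ± 0.22 (SE), adjusted p = 0.0893), and no FL library of a genotype reached its controls. Both calls were close to the threshold. Rfc4 lost the Clec9agfp/gfp call in limma-voom on counts and when thinned to the shallowest library. Its WT call was lost in 17 of 26 alternatives. They included edgeR on counts, the replicate number as a block in the fit, column totals and sample quality weights. Using only the groups compared, thinning and removing the length trend of all genes also ended it. Single libraries mattered as well. The Clec9agfp/gfp call was lost without any 1 of 5 of the 6 Clec9agfp/gfp libraries (the exception was Clec9agfp/gfp FL 2), and the WT call without any 1 of 9 of the 12 libraries (the exceptions were WT control 2, Clec9agfp/gfp control 1 and Clec9agfp/gfp FL 3).

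The other loader subunits were compared next. Rfc2 read 147, 155 and 169 in WT control, 119.5, 106 and 125 in WT FL, 137, 123 and 133 in Clec9agfp/gfp control and 112, 106 and 86.2 in Clec9agfp/gfp FL. Rfc5 read 81.3, 86.7 and 88.8 in WT control, 68.5, 55.7 and 70.021 in WT FL, 71.6, 74.8 and 98.7 in Clec9agfp/gfp control and 55.8, 65.6 and 56.4 in Clec9agfp/gfp FL. FL libraries lay below the controls in both genotypes for both genes, with log2 fold changes of −0.38 and −0.45 in Clec9agfp/gfp and −0.42 and −0.40 in WT cDC1s. Rfc3 read 31.9, 31.9 and 47.4 in WT control, 24.8, 22.6 and 25.4 in WT FL, 34.994, 27.3 and 26.3 in Clec9agfp/gfp control and 27.1, 22.4 and 19.2 in Clec9agfp/gfp FL, apart in WT and overlapping by a single Clec9agfp/gfp control library in the mutant. Rfc1, the large subunit, had overlapping groups in both genotypes and log2 fold changes of −0.14 and 0.10.

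Replication protein A coats the single strands that the helicase exposes. Rpa2 read 73.2, 62.9 and 72.4 in WT control, 48.6, 31.1 and 57.8 in WT FL, 62.9, 64.6 and 54.3 in Clec9agfp/gfp control and 42.5, 46.007 and 24.8 in Clec9agfp/gfp FL. FL libraries lay below the controls in both genotypes, with log2 fold changes of −0.71 ± 0.26 and −0.63 ± 0.26 (SE, adjusted p = 0.164 and 0.175). Rpa1, the large subunit, read 69.7, 123 and 77.003 in WT control, 80.04, 92.5 and 132 in WT FL, 113, 119 and 138 in Clec9agfp/gfp control and 98.1, 102 and 86.041 in Clec9agfp/gfp FL. It was lower with FL in all 3 Clec9agfp/gfp libraries (log2 fold change of −0.37 ± 0.24 (SE), adjusted p = 0.483) and overlapped in WT (0.19). Rpa3, the smallest subunit and the shortest transcript of the 53 at 670 bases, had log2 fold changes of −0.06 in Clec9agfp/gfp and −0.43 in WT cDC1s, with overlap in both.

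Okazaki fragments are trimmed by the flap nuclease Fen1 and sealed by the ligase Lig1. Fen1 read 99.9, 171 and 115 in WT control, 106, 85.8 and 146 in WT FL, 124, 206 and 139.5 in Clec9agfp/gfp control and 99.1, 111 and 93.9 in Clec9agfp/gfp FL. Fen1 and Lig1 had all Clec9agfp/gfp FL libraries below their controls and log2 fold changes of −0.59 and −0.43 without a call (adjusted p = 0.243 and 0.395), and in WT cDC1s the values were −0.18 and −0.14 with overlap.

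Nucleotide supply showed the largest percent difference of the 10 roles in summed level, just above the MCM genes (37.9%), 691 ± 90.5 CPM (SD, 3 libraries) in Clec9agfp/gfp control and 426 ± 95.1 CPM in Clec9agfp/gfp FL, 38.3% lower. Rrm2 (chr12:24708241-24714146, plus strand), the regulated subunit of ribonucleotide reductase, which makes deoxynucleotides from ribonucleotides, read 147, 236 and 182 in WT control, 164, 131 and 215 in WT FL, 194, 256 and 258 in Clec9agfp/gfp control and 151, 156 and 100 in Clec9agfp/gfp FL. It fell with FL in Clec9agfp/gfp (log2 fold change of −0.81 ± 0.24 (SE), adjusted p = 0.0832), where no FL library reached a control, and overlapped in WT cDC1s (log2 fold change of −0.15 ± 0.24 (SE), adjusted p = 0.74). The Rrm2 call did not hold in edgeR or limma-voom on counts, nor without Clec9agfp/gfp control 2 or 3, Clec9agfp/gfp FL 1 or 3, or WT FL 1. Its partner Rrm1 read 144, 262 and 143 in WT control, 169, 154 and 238 in WT FL, 213, 279.5 and 369.9 in Clec9agfp/gfp control and 183, 185 and 132 in Clec9agfp/gfp FL. Rrm1 also had every mutant FL library below the mutant controls, without a call (log2 fold change of −0.76 ± 0.27 (SE), adjusted p = 0.145) and a WT log2 fold change of 0.07.

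The thymidylate enzymes differed from the reductase in where the WT controls stood. Dut, which destroys dUTP so that uracil stays out of DNA, read 71.5, 48.4 and 64.1 in WT control, 38.7, 29.036 and 38 in WT FL, 40.8, 39.9 and 30.2 in Clec9agfp/gfp control and 28.8, 30.3 and 14.9 in Clec9agfp/gfp FL. Tyms, which makes thymidylate, read 88.953, 64.6 and 90.6 in WT control, 64.3, 41.9 and 58.4 in WT FL, 63.5, 52.3 and 60.9 in Clec9agfp/gfp control and 50.2, 50.1 and 30.1 in Clec9agfp/gfp FL. Tk1, which salvages thymidine, read 85.7, 84.8 and 97.7 in WT control, 69.023, 50.7 and 67.5 in WT FL, 84.3, 72.4 and 56.951 in Clec9agfp/gfp control and 58.6, 69.1 and 39.6 in Clec9agfp/gfp FL. In all 3 genes the WT FL libraries lay below the WT controls (10.8% of all genes) and the Clec9agfp/gfp controls also lay below the WT controls (8.25%). For Tk1 the closest libraries were at 84.3 and 84.8 CPM. Between the control groups none of the 3 passed (limma adjusted p = 0.192 for Dut, 0.314 for Tyms and 0.429 for Tk1). With the length trend of all genes removed, these log2 differences were −0.62, −0.64 and −0.04 for the 3 genes. Their log2 fold changes with FL were −0.78, −0.57 and −0.52 in WT and −0.62, −0.46 and −0.37 in Clec9agfp/gfp cDC1s for Dut, Tyms and Tk1, without a call in either genotype.

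Chromatin behind the fork held the largest single difference. H2afx (chr9:44334694-44336077, plus strand), the histone variant whose phosphorylated form marks DNA breaks, read 104, 76.9 and 104 in WT control, 82.2, 66.6 and 47.9 in WT FL, 118, 123 and 74.6 in Clec9agfp/gfp control and 19.4, 43.5 and 26.8 in Clec9agfp/gfp FL. It fell with FL in Clec9agfp/gfp cDC1s (log2 fold change of −1.82 ± 0.29 (SE), adjusted p = 0.0102), a mean 3.52 times lower, with the highest FL library well under the lowest control. In WT cDC1s the log2 fold change was −0.54 ± 0.29 (SE, adjusted p = 0.28) with overlap, and under FL all 3 Clec9agfp/gfp libraries lay below the 3 WT libraries. Asf1b (chr8:83955507-83970197, plus strand), a chaperone that hands new histones H3 and H4 to the fork, read 149.9, 153 and 146 in WT control, 90.9, 83.4 and 106 in WT FL, 127, 132 and 136 in Clec9agfp/gfp control and 84.7, 90.1 and 60.5 in Clec9agfp/gfp FL. Its replicates lay close together in the controls (SD of 3.11 CPM in WT and 4.64 CPM in Clec9agfp/gfp) and less so with FL (11.5 and 15.8 CPM). Asf1b fell in Clec9agfp/gfp (log2 fold change of −0.76 ± 0.19 (SE), adjusted p = 0.0407) and in WT cDC1s (log2 fold change of −0.68 ± 0.19 (SE), adjusted p = 0.071), the only member besides Rfc4 with a call in both. Asf1b lost the Clec9agfp/gfp call without Clec9agfp/gfp control 2 or 3 or Clec9agfp/gfp FL 1 or 3, and the WT call without any 1 WT library other than WT control 2. Its WT call was also lost with column totals, sample quality weights, only the groups compared, thinning and the length trend removed.

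Chaf1a and Chaf1b are subunits of CAF-1, which takes histones from Asf1 chaperones onto new DNA. Chaf1a (chr17:56040439-56072289, plus strand) read 17.5, 5.29 and 11.1 in WT control, 4.12, 11.1 and 5.73 in WT FL, 12.6, 19.978 and 14.8 in Clec9agfp/gfp control and 7.41, 5.99 and 2.84 in Clec9agfp/gfp FL. It fell with FL in Clec9agfp/gfp cDC1s (log2 fold change of −1.44 ± 0.42 (SE), adjusted p = 0.0779), but its level was low and scattered, the WT groups overlapped, and the call did not hold in edgeR or limma-voom nor without Clec9agfp/gfp control 2 or 3 or any 1 Clec9agfp/gfp FL library. Chaf1b had log2 fold changes of −0.64 in Clec9agfp/gfp and −0.07 in WT cDC1s. Uhrf1, which finds half-methylated new DNA, read 132, 163 and 75.3 in WT control, 105, 117 and 179 in WT FL, 167, 178 and 178 in Clec9agfp/gfp control and 137, 134 and 111 in Clec9agfp/gfp FL. Uhrf1 overlapped in WT and lay below the controls in Clec9agfp/gfp FL (log2 fold change of −0.45 ± 0.26 (SE), adjusted p = 0.415). Dnmt1, the methyltransferase that Uhrf1 recruits, was the member furthest in the other direction, with a WT log2 fold change of 0.67 ± 0.24 (SE, adjusted p = 0.124), and −0.17 in Clec9agfp/gfp cDC1s.

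Fork protection was represented by Timeless and Tipin, which bind each other and steady the fork, by the checkpoint adaptor Clspn and by Usp1, which removes ubiquitin from Pcna. Timeless, the highest of the 4, read 98.2, 94.2 and 71.5 in WT control, 80.1, 61.6 and 98.6 in WT FL, 95.2, 92.5 and 85.7 in Clec9agfp/gfp control and 82.9, 85.1 and 51.4 in Clec9agfp/gfp FL. Tipin read 99.8, 87.3 and 128 in WT control, 80.5, 69.2 and 82.4 in WT FL, 84.8, 70.7 and 85.018 in Clec9agfp/gfp control and 61.3, 56.8 and 44.2 in Clec9agfp/gfp FL. Both had Clec9agfp/gfp FL below its controls, with log2 fold changes of −0.35 and −0.57, but only Tipin had its WT groups apart as well (−0.42, against −0.15 for Timeless). Usp1 read 35.2, 19.042 and 21.4 in WT control, 15.018, 15.961 and 14.2 in WT FL, 13.4, 19.7 and 20.7 in Clec9agfp/gfp control and 14.4, 13.7 and 7.77 in Clec9agfp/gfp FL. Its WT groups were apart with a log2 fold change of −0.66, and its mutant groups overlapped because Clec9agfp/gfp control 1 was low (−0.57). Clspn had −0.59 and −0.11, with overlap in both genotypes.

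FL in WT cDC1s gave fewer and less even differences. The median log2 fold change of the 53 genes was −0.15, against −0.01 over all genes, and 37 members were below 0. That median ran from −0.07 without WT FL 2 and −0.09 without WT control 2 to −0.24 without WT control 3 and −0.31 without WT FL 3. Asf1b and Rfc4 fell and none rose, 2 of 53 members, while 1.19% of all genes tested fell and 5.37% rose. FL libraries lay below all WT controls for 17 members, against 10.8% of all genes, and above them for 2, Gins3 and Dnmt1, against 12.1% of all genes. Both calls ended without WT control 1, WT control 3 or any 1 WT FL library. Without WT control 2, 12 members passed, of which 9 fell (Gins2, Gins4, Pcna, Rfc3, Rfc4, Tyms, Dut, Asf1b and Usp1) and 3 rose (Mcm2, Mcm4 and Dnmt1), while 8.69% of all genes fell and 13.8% rose in that setting. Scaling by column totals, which moved the median of all genes to 0.11, left 1 call, Dnmt1, which rose by 0.80 on the log2 scale (adjusted p = 0.0874 by limma), and 8.53% of all genes rose then. The summed level of 10 heat shock genes moved as well, at 7280.0 to 9383 CPM in WT control and 5836 to 6637 CPM in WT FL with 1 of the 10 lower (Hsp90aa1), and its part in the result was not tested. Over the 53 genes, the FL differences in WT and in Clec9agfp/gfp cDC1s, which share no library, had a Pearson r of 0.31, and over all genes tested 0.42, across genes that are not independent replicates.

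**Figure D3:**
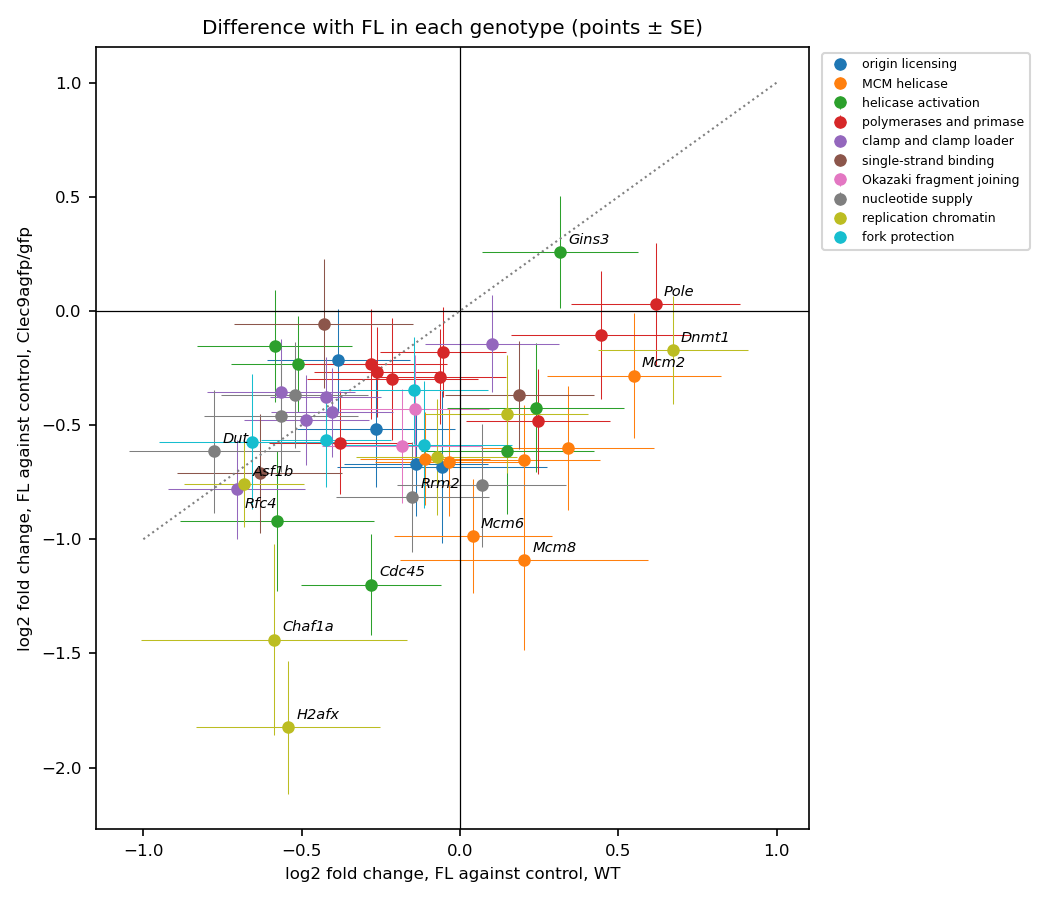
Log2 fold change of FL against control in WT (horizontal) and in Clec9agfp/gfp cDC1s (vertical) for the 53 members, coloured by role, with bars for the SE and a dotted line of equal change. Only Gins3 and Pole lie above 0 in Clec9agfp/gfp, H2afx and Chaf1a lie lowest, and the MCM genes lie below the dotted line.

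In WT cDC1s the difference with FL ran with transcript length across the members. The longest annotated transcripts ranged from 670 to 7163 bases. With FL in WT the 26 members under the median length of 3014 bases had a median log2 fold change of −0.39 and the other 27 had 0.07, and the Pearson r of log2 length with log2 fold change was 0.59 over the 53 members and 0.41 over the 11242 genes with a length. In Clec9agfp/gfp cDC1s the medians were −0.57 and −0.46, with an r of 0.08 over the members and 0.00 over all genes to 2 decimals. By library the relation was strongest in WT control 3, with an r of −0.66 over the members and −0.50 over all genes between log2 length and the level relative to the gene's mean. These correlations run over genes that share libraries and carry no p. With the length trend of all genes removed from each library, an alternative chosen after the data were seen, 10 members fell with FL in Clec9agfp/gfp cDC1s, namely Mcm5, Mcm6, Cdc45, Gins1, Rfc4, Rrm1, Rrm2, Chaf1a, Asf1b and H2afx, while 3.96% of all genes fell, and no member passed in WT.

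**Figure D4:**
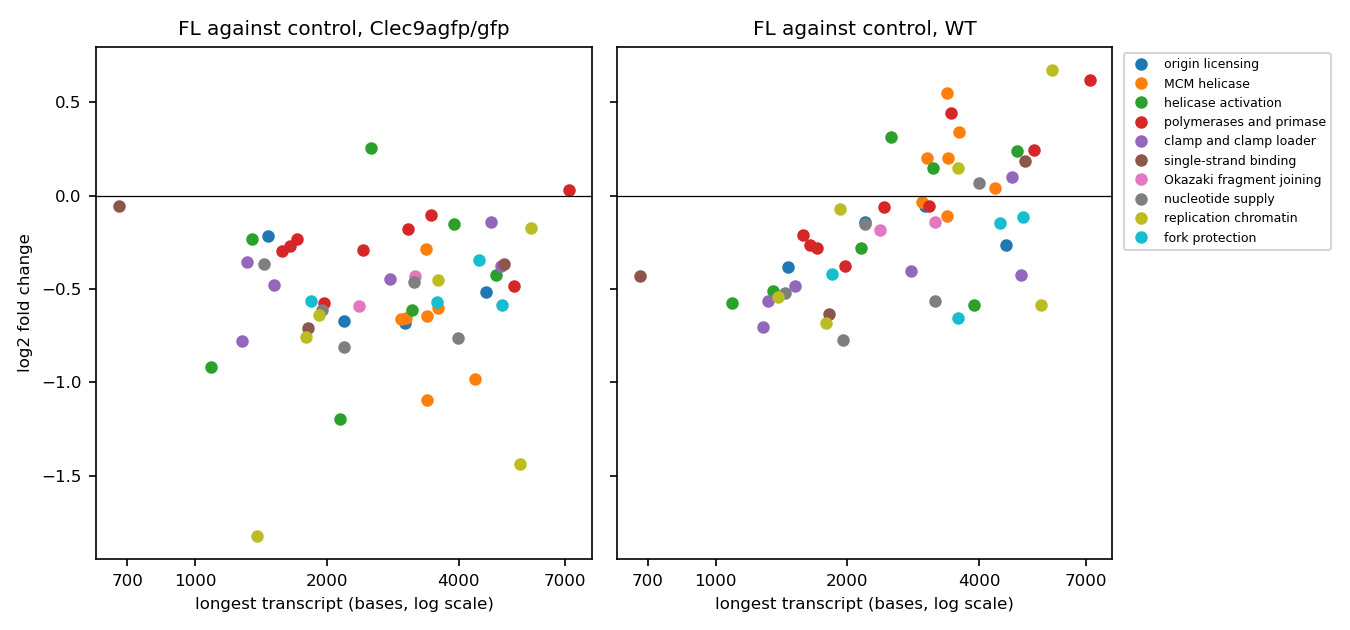
Log2 fold change of FL against control (vertical) against the length of the longest transcript (horizontal, log scale) for the 53 members, in Clec9agfp/gfp (left) and in WT cDC1s (right), coloured by role. In WT the points climb from left to right (r of 0.59) and the MCM genes lie above the short clamp loader genes, while in Clec9agfp/gfp they do not climb (r of 0.08).

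The average FL difference over both genotypes uses the same 12 libraries as the single comparisons and so adds no independent data, but rests on 6 libraries a side. On that average 19 of the 53 members fell and none rose, while 7.85% of all genes tested fell, and the median log2 fold change was −0.37. The 7 members that fell in Clec9agfp/gfp cDC1s were among them, and the other 12 were Gins1, Prim2, Pcna, Rfc2, Rfc3, Rfc5, Rpa2, Tyms, Tk1, Dut, Tipin and Usp1. By role this covered 5 of 6 clamp and loader genes, 4 of 5 nucleotide supply genes, 3 of 6 chromatin genes, 2 of 4 fork protection genes, 2 of 7 helicase activation genes, 1 of 3 single-strand binding genes, 1 of 9 polymerase and primase genes, 1 of 7 MCM genes and none of the licensing and Okazaki fragment genes. The average log2 fold change was −1.18 ± 0.21 for H2afx (SE, adjusted p = 0.00719), −0.72 ± 0.13 for Asf1b (0.00801) and −0.74 ± 0.15 for Rfc4 (0.0106). Among the members called only here it was −0.75 ± 0.22 for Gins1 (SE, adjusted p = 0.0384), −0.70 ± 0.19 for Dut (0.0319), −0.67 ± 0.18 for Rpa2 (0.0311) and −0.48 ± 0.14 for Pcna (0.0392). Asf1b, Cdc45, Dut, H2afx, Rfc4 and Rpa2 were called under all 25 alternatives. Gins1 lost its call without Clec9agfp/gfp control 2 or Clec9agfp/gfp FL 3 and when thinned to the shallowest library. Pcna lost its call without Clec9agfp/gfp FL 3 and with the length trend removed. The count was 6 without Clec9agfp/gfp FL 3 (3.72% of all genes fell), 10 without WT FL 2 (5.69%) and 11 without Clec9agfp/gfp control 2 (4%). With the length trend removed it was 17, and 927 of 11242 genes fell. In that setting Prim2, Pcna, Rfc3, Rrm2 and Tk1 lost their calls, and Cdc6, Mcm5 and Rrm1 gained one. Cell type markers were also called on this average, where 1081 of 11255 genes rose. Macrophage and monocyte markers had 5 of 15 higher and 1 lower, and cDC1 markers 1 of 15 higher and 2 lower. Among 8 cDC2 markers 2 were higher and 1 lower. Higher too were 1 of 6 plasmacytoid markers, 1 of 5 fibroblast and endothelium markers and Gzmb (log2 fold change of 0.96). Their part in the result was not tested.

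The genotypes were compared under each plasmid to ask what the loss of DNGR-1 does to these genes. Under the empty plasmid, no member differed between Clec9agfp/gfp and WT cDC1s by limma (0.0267% of all genes did), edgeR or limma-voom. Without adjustment 9 members were higher and 2 lower at p below 0.05, against 10.8% and 8.83% of all genes, and the median log2 fold change was 0.16, against 0.05 over all genes. The 9 became 14 without WT control 2, 5 without WT control 1, 4 without Clec9agfp/gfp control 2, 2 without Clec9agfp/gfp control 3 and 1 without WT control 3. With the length trend of all genes removed, 0 members were higher and 5 lower at p below 0.05 by limma. Shares of all genes at this threshold were not computed for these alternatives. Without WT control 3 the median was 0.07, and without Clec9agfp/gfp control 2 it was also 0.07. Clec9agfp/gfp control libraries lay below all WT controls for 7 members (Pole2, Rfc2, Tyms, Tk1, Dut, Asf1b and Tipin, 8.25% of all genes) and above them for 3 (Pola1, Uhrf1 and Dnmt1, 8.23% of all genes). Length divided the members here too, with a median log2 fold change of −0.19 for the 26 shorter and 0.42 for the 27 longer genes and an r of 0.62 over the members and 0.47 over all genes. Without WT control 2, 11 members passed as higher (Mcm2, Mcm3, Mcm4, Mcm6, Mcm7, Mcm10, Pola1, Rpa1, Rrm1, Uhrf1 and Dnmt1) and 2 as lower (Rpa3 and Dut), while 11.9% of all genes passed as higher and 8.87% as lower.

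Under FL, again no member differed between the genotypes by limma (0.0267% of all genes did), edgeR or limma-voom. Without adjustment, 5 members had p below 0.05, all in the lower direction, against 2.6% of all genes lower and 1.23% higher. The 5 became 3 without WT FL 1, 2 without WT FL 3 and 1 without Clec9agfp/gfp FL 3. Again the shares of all genes at this threshold were not computed for these alternatives. The median log2 fold change was −0.24, with 48 of 53 members lower in Clec9agfp/gfp FL than in WT FL. The 3 Clec9agfp/gfp libraries lay below the 3 WT libraries for 8 members, Orc1, Cdt1, Mcm8, Cdc45, Gins1, Rfc1, H2afx and Tipin, against 5.36% of all genes. H2afx had the smallest p (log2 fold change of −1.15 ± 0.29 (SE), adjusted p = 1), followed by Cdc45 (log2 fold change of −0.60 ± 0.22 (SE), adjusted p = 1). Without Clec9agfp/gfp FL 3 the median was −0.09 and 38 members were lower, and without WT FL 3 the median was −0.12.

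Whether FL acted differently in the 2 genotypes was tested by the interaction, and no member passed by limma, edgeR or limma-voom, nor did any gene in the table (0%). Without adjustment 10 members with p below 0.05 had a more negative FL difference in Clec9agfp/gfp than in WT cDC1s and none the reverse, against 6.04% and 3.08% of all genes, with a median interaction of −0.29. The 10 became 16 without WT control 2, 5 without WT control 1, 4 without Clec9agfp/gfp control 3 or Clec9agfp/gfp FL 3, 3 without WT control 3 or WT FL 3, and 5 with the length trend removed. For these alternatives too, shares of all genes at p below 0.05 were not computed, so the counts have no baseline. Without Clec9agfp/gfp FL 3 the median was −0.13. The smallest p values were those of H2afx (−1.28 ± 0.41, SE), Cdc45 (−0.92 ± 0.31) and Mcm6 (−1.02 ± 0.35) on the log2 scale, each with an adjusted p of 0.455. The calls in Clec9agfp/gfp and their absence in WT cDC1s therefore do not show that the genotypes differ in their response.

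Further genes of the same pathway were taken from lists written from general knowledge. Their counts are to be read against the shares of all genes, 3.45% lower with FL in Clec9agfp/gfp and 1.19% lower and 5.37% higher in WT cDC1s. Of 45 measured other replication genes, 4 fell with FL in Clec9agfp/gfp cDC1s and none rose, with a median log2 fold change of −0.27. The 4 were Asf1a, the sister chaperone of Asf1b (−1.55 ± 0.42, SE), Nasp, which stores histones for it (−0.78 ± 0.23), Top2a, which untangles copied DNA (−0.85 ± 0.26), and Dbf4, the activator of the Cdc7 kinase (−0.88 ± 0.27). In WT, 1 of the 45 fell, Rnaseh2a, which removes RNA from DNA (−0.91 ± 0.21), and 1 rose, Lig3, a repair ligase (1.32 ± 0.34). Of 40 other nucleotide synthesis genes, Uck2, a uridine-cytidine kinase (−1.92 ± 0.42), fell in Clec9agfp/gfp and Nme1, a nucleoside diphosphate kinase (−0.80 ± 0.21), in WT cDC1s, and the medians were −0.22 and −0.25.

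Regulators of the cycle were compared next. Of 32 measured genes of the E2F and Rb network, 3 fell in Clec9agfp/gfp FL (3.45% of all genes did), Tfdp1, the partner of E2F factors (−0.87 ± 0.23), Lin54, of the DREAM complex (−1.14 ± 0.27), and Cdkn2c, an inhibitor of cyclin D kinases (−1.83 ± 0.46). In WT, E2f1 (−0.89 ± 0.26), Ccnd1 (−0.81 ± 0.23) and Cdkn2d (−0.85 ± 0.22) fell and the pocket protein gene Rbl2 rose (1.27 ± 0.31), against 1.19% and 5.37% of all genes.

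Genes of mitosis, the step after replication, stood lower with FL than the replication genes did. Of 45 measured, 20 fell in Clec9agfp/gfp cDC1s and none rose, with a median log2 fold change of −0.81, against 7 of 53 and −0.48 for the replication genes. Aurka (−1.14 ± 0.22), Aurkb (−1.04 ± 0.24), Plk1 (−1.16 ± 0.27), all mitotic kinases, and the spindle protein gene Nusap1 (−0.95 ± 0.22) had the smallest p. In WT 6 of the 45 fell and 1 rose, with a median of −0.38, among them Ube2c, a ubiquitin ligase partner that ends mitosis (−0.95 ± 0.24), and Cdca8, of the chromosomal passenger complex (−0.88 ± 0.24), while Espl1, separase, rose (1.06 ± 0.31). The difference between the lists was not tested. The summed level of the mitosis genes was 4334 ± 440 CPM (SD, 3 libraries) in Clec9agfp/gfp control and 2535 ± 627 CPM in Clec9agfp/gfp FL, with Clec9agfp/gfp FL 3 again the lowest of the 12 libraries at 1910.0 CPM.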

How the data were processed

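RNA of CD11c-enriched cells sorted as cDC1s (positive for CD45, MHCII, CD24 and CD103, negative for Ly6C, F4/80 and CD11b) was sequenced in 12 libraries (61-base single-end reads, SMARTer cDNA and Nextera XT, which keep no strand), so that overlapping and antisense genes cannot be told apart. The signal values deposited by the authors are counts per M of the TMM-scaled library size. According to the submitters' processing notes, CASAVA 1.8.2, cutadapt 1.3 and RSEM 1.2.3 were used with GRCm38. How low genes were dropped from the table is not given in the sources used here.

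In every library 100% of the values equaled a whole count plus 0.5 over 1 scaling factor (tolerance 0.02 counts). edgeR on these recovered counts called 349 genes lower and 184 higher with FL in Clec9agfp/gfp cDC1s, and 50 lower and 332 higher in WT. As main test, log2(value + 1) of genes with a mean of at least 1 was fitted with limma 3.58.1 (mean-variance trend, 1 mean per group, all 12 libraries) in R 4.3.3, with Benjamini-Hochberg adjustment and a threshold of 0.1, the study's own. The fit was run on simulated counts with the same dispersion for every gene and no outlying library or length trend. It therefore says nothing about those features of the real data. Replicates are separate pools, and p-values measure the spread between pools.

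The members, gene lists and alternatives were chosen with earlier results of these data known. Values in every library are given for members called in any comparison and, in each role, for the one with the highest mean and the one with the smallest p, and up to 4 called genes of each further list are named. A list of S-phase checkpoint genes is not reported here. Alternatives covered the pseudocount (0.5 and 0.1), the filter, the scaling, limma-voom, edgeR 4.0.16, sample weights, the replicate block, each library left out, only the groups compared and a threshold of 0.05, and, chosen after the data were seen, thinning to the shallowest library and removal of a length trend. Lengths, coordinates and exons come from GENCODE M21 (GRCm38), promoters from RefSeq (GRCm38.p6).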

Additional observations from a re-analysis of the deposited data

How the results depend on the processing

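Each median log2 fold change of the 53 members kept its direction under every alternative and moved by less than the SD between replicates of their median level (0.172), which is larger than the medians of −0.15 for FL in WT and 0.16 between genotypes under the empty plasmid. The first became −0.03 with column totals, and leaving out 1 library gave −0.31 to −0.07. The second became 0.25 with column totals, 0.09 with upper-quartile scaling and 0.10 with the length trend removed, and leaving out 1 library gave 0.07 to 0.18. Between genotypes under FL the median of −0.24 became −0.15 with sample quality weights and ran from −0.31 to −0.09 without 1 library, and for the interaction −0.29 ran from −0.38 to −0.13. Counts of members called moved more. With FL in Clec9agfp/gfp cDC1s the count of 7 became 16 with sample quality weights, 12 with only the groups compared, 4 at an adjusted p under 0.05 and 4 when thinned to the shallowest library, and leaving out 1 library gave 2 to 12. Of all 11255 genes, 388 fell in the main fit, 916 with the weights, 612 with only the groups compared and 210 at 0.05. When thinned, 332 of 11260 genes fell. With FL in WT the count of 2 became 1 by edgeR on recovered counts, 1 when thinned, 0 with sample quality weights, 0 with only the groups compared, 0 at an adjusted p under 0.05 and 0 with the length trend removed. In the same order 50, 95, 39, 0, 4 and 15 of all genes fell, against 134 in the main fit. With column totals the count of members was 1, in the opposite direction (Dnmt1, higher). Leaving out 1 library gave 0 to 12, and Rfc4 was the call lost (1 left) without Clec9agfp/gfp control 2 or 3 or Clec9agfp/gfp FL 1 or 2. Over both genotypes the count of 19 became 10 with column totals and 10 at an adjusted p under 0.05, and leaving out 1 library gave 6 to 19. Of all genes, 884 fell in the main fit, 593 with column totals and 453 at 0.05. Between genotypes under the empty plasmid the count of 0 became 13 without WT control 2, so that leaving out 1 library gave 0 to 13. Without WT control 2, 11.9% of all genes were called higher and 8.87% lower. Column totals moved the median of all genes to 0.11 for FL in WT, 0.14 between genotypes under the empty plasmid and −0.16 for the interaction. Of 709 combinations of a single member's call and an alternative, 543 kept the call, 166 lost it and 0 reversed it.

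Libraries with the same replicate number deviated together in some pairs only. Over 18 such pairs of libraries the correlation of deviations from the group means ran from −0.22 to 0.34, with a median of 0.02, and it was above 0.1 in 5. All pairs of libraries numbered 1 were positive (0.03 to 0.34). Over 36 pairs with different numbers it ran from −0.30 to 0.45, with a median of −0.02, and was above 0.1 in 7. The numbers were not taken to pair the libraries, though a shared deviation is not excluded. By the study's account the pools come from 3 separate experiments, but the sources used here do not say that a library number marks an experiment. With a replicate block in the fit, the count was 7 with FL in Clec9agfp/gfp, 1 with FL in WT (Rfc4 lost its call) and 17 over both genotypes (Rfc3 and Tk1 lost theirs). Of all 11255 genes, 394, 96 and 813 fell in that fit, in the same order, against 388, 134 and 884 in the main fit. Clec9agfp/gfp control 3 limits the precision of low members, since 1 count there is worth 0.326 CPM.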
